A study of Mesocricetus auratus with 24 samples.

Results

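KB708158.1 is a scaffold, a stretch of assembled genome sequence, of the Syrian hamster. Every CpG position that the 24 libraries list on it was taken, 22171 of 3197735 positions in the series (0.6933%), and the scaffold was split at 4.75 Mb. The side before the split held 5837 positions and the side after it held 16334, between bases 1223 and 18197354. The scaffold and the split were chosen from these data, because the share of reads in senescence-bypass libraries was lower on one side of it than in senescent libraries. The coverage and the methylation of bypass against senescent libraries are therefore given as a description. A genome-wide window test of that contrast is also only described, and what is reported as tested compares the other groups, which the choice did not use.

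The study followed fetal Syrian hamster cells through stages of transformation after benzo[a]pyrene (B[a]P) with reduced representation bisulfite sequencing (RRBS), 4 libraries in each of 6 groups. Senescent libraries (day 48) and bypass libraries (day 94, after the culture had left senescence) are technical replicates from 1 culture, grown from 1 morphologically transformed colony treated with 5 µg/mL B[a]P. That assay used pooled female and male fetuses, and the colony was typed male. Transformed and normal colonies are cultures grown from colonies of either morphology, all treated with that dose, over 19 to 25 days. Vehicle pools (0.2% DMSO) and B[a]P pools (5 µg/mL) hold about 60 colonies each at day 9. These last 4 groups are biological replicates of cells from a single male fetus. The spread within the senescent and bypass groups is thus technical, and their difference also spans the days between samplings and cannot be told apart from time in culture.

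B[a]P is a combustion product whose activated form binds DNA, and a small share of the colonies exposed to it take on a disordered, transformed morphology. Most such colonies later stop dividing in senescence, a lasting arrest of the cell cycle, and only some cultures escape it. In mammalian DNA, methylation sits mainly on the cytosine of CpG pairs: CpG-rich promoters are usually unmethylated and most other CpGs methylated. RRBS reads CpG-rich restriction fragments, so the number of reads over a region also depends on the amount of its DNA in the sample.

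Library totals ran from 30316233 to 67276906 counts of coverage, a count being 1 read over 1 CpG position, and no listed position had fewer than 10. Each library listed 4776 to 10308 positions of the scaffold. Coverage is given below as CPM, the counts on the scaffold in each 1000000 counts of the library's total. Of 36 groups of 4 values examined on the scaffold, none held a library far from the rest.

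Before the split, senescent and bypass libraries had coverage shares in the same range. The 4 senescent libraries had 1739, 1560, 1703 and 1852 CPM there, and the 4 bypass libraries 1742, 1800, 1831 and 1772. The bypass values lay inside the range of the 20 other libraries, 1534 to 1902. The ratio of the group means was 1.04.

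After the split, the bypass libraries stood below every other library. They had 2257, 2524, 2475 and 2472 CPM, against 4568, 4379, 4607 and 4779 in the senescent libraries. Transformed colonies had 4816, 4649, 4524 and 4689, and normal colonies 4616, 5256, 4829 and 4771. The values were 4699, 4788, 4658 and 4931 in vehicle pools and 4665, 4771, 4515 and 4757 in B[a]P pools. The highest bypass value (2524) was well under the lowest of the other 20 (4379), and the 5 other groups overlapped each other. The bypass mean was 0.531 of the senescent mean, a log2 ratio of -0.91.

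Because both sides sit in the same library, their ratio does not depend on the library total. Coverage after the split over coverage before it was 1.295, 1.402, 1.351 and 1.395 in the bypass libraries and 2.56 to 3.06 in the 20 others, without overlap. On the log2 scale, with the senescent mean set at 0, the bypass libraries were at -0.98 ± 0.05 and the senescent ones at 0 ± 0.05 (SD, n = 4). Copy number was not measured, and whether the lower share comes from fewer copies of this DNA was not tested. In DNA from a whole culture, such a share also could not tell fewer copies in every cell from a loss in part of the cells.

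**Figure D1:**
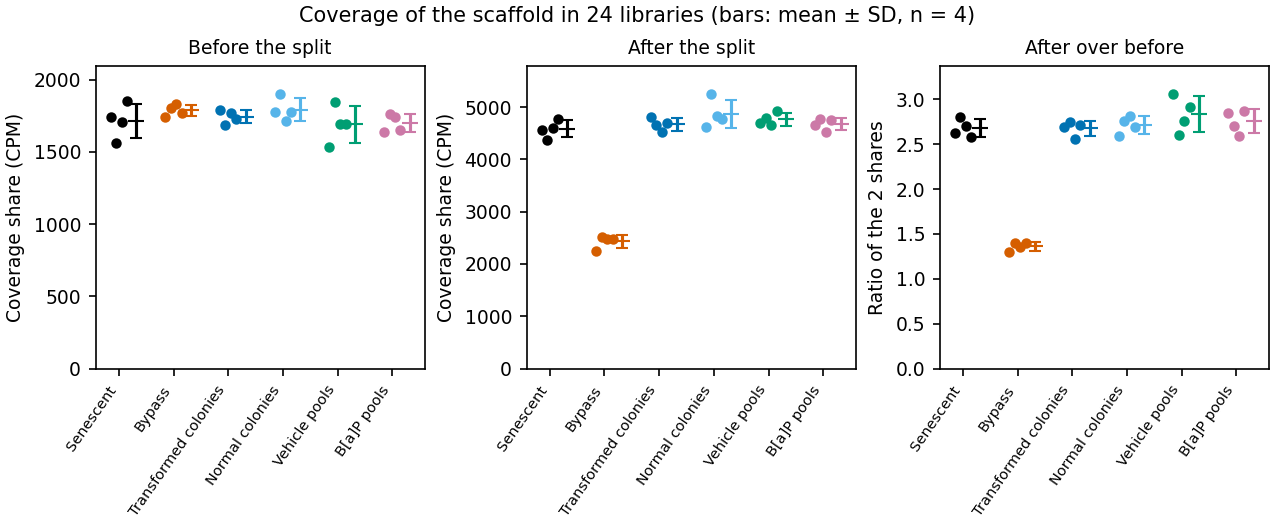
Coverage of the scaffold in CPM, before and after the split, and the ratio of the 2 shares, for each of 24 libraries, with mean ± SD (n = 4). Before the split the bypass libraries (1742 to 1831) lie within the other 20, and after it they lie at 2257 to 2524, below the lowest other value of 4379.

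The same ratio was tested between the groups that the choice of the scaffold did not use. Transformed colonies were at 0 ± 0.05 and normal colonies at 0.02 ± 0.05, a difference of -0.02 (exact two-sided permutation test over 70 assignments, p = 0.543, adjusted over 8 tests 0.62). B[a]P pools were at 0.04 ± 0.07 and vehicle pools at 0.08 ± 0.10, a difference of -0.04 (exact permutation p = 0.543, adjusted 0.62). Neither difference was larger than the SD between replicates, and the sign of each turned without 1 library, transformed 3 (0.001931) or vehicle 1 (0.0006919). The pools' difference depended on the positions used. It was -0.34 over positions listed in all 24 libraries (exact permutation p = 0.0857, adjusted 0.343). Over positions with a mean of 30 counts or more in the 16 libraries outside the bypass contrast, chosen after seeing the data, it was -0.10 (exact permutation p = 0.0286, adjusted 0.229). For transformed against normal colonies these positions gave -0.05 and -0.12 (neither with an adjusted exact permutation p under 0.4). The smallest p this test can give is 0.0286.

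The lower coverage appeared mostly as fewer listed positions. The bypass mean of listed positions after the split was 0.559 of the senescent mean, beside 0.531 for the coverage share. The median count at listed positions after the split was 18, 24, 21 and 31 in bypass libraries. In senescent libraries it was 23, 29, 22 and 28, so the groups overlapped. Before the split these medians were 21, 29, 22 and 33, and 24, 30, 22 and 28. After the split the bypass libraries listed 2860 to 4163 positions and the others 4301 to 7546, against 1916 to 2388 and 1592 to 2838 before it. Positions after over positions before were 1.49 to 1.74 in bypass and 2.58 to 2.98 elsewhere. Since no position under 10 counts is listed, a lower true coverage also removes positions from the files. Among positions with a mean of 10 to 20 counts in the 16 libraries outside the contrast, 74.4% were missing from an average bypass library after the split and 49.7% from a senescent one. Before the split the shares were 51.9% and 49.7%.

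Positions of high coverage are little touched by that minimum. The 48 positions after the split with a mean of 100 counts or more in the 16 other libraries were missing in 4.17% of bypass and 1.56% of senescent cases. They carried 156 ± 31.6 CPM in bypass and 261 ± 17.8 in senescent libraries (SD, n = 4), a log2 ratio of -0.74. Their 20 counterparts before the split carried 104 ± 24.4 and 106 ± 14.6, a log2 ratio of -0.03. Over all 6 classes of mean coverage the log2 ratio ran from -1.05 to -0.74 after the split and from -0.03 to 0.17 before it. The ratio thus stood below 0 in each class after the split, and was nearest 0 in the class of highest coverage.

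Along the scaffold, the bypass share was below the senescent share in nearly all bins after the split. In bins of 250 kb with at least 50 positions, the bypass log2 ratio to the senescent mean was 0.06 ± 0.21 over 19 bins before the split (SD over bins) and -0.96 ± 0.28 over 46 bins after it. All 46 bins after the split were below 0 and 44 were below -0.5, while 0 of the 19 before it were. The 2 bins above -0.5 start at 5500001 (-0.41) and 6250001 (-0.39). In 30 of the 46 bins every bypass library was below every senescent library, and in 22 below all 20 other libraries, against 1 and 0 of 19 before the split. Bins with fewer than 50 positions, 8 after the split and 0 before it, were left out of these counts. Of those 8, the bin from 7750001 was at 0.05 (1.29 CPM in senescent and 1.33 in bypass), and that from 17500001 at -0.18 (34.7 and 30.7), with overlapping libraries. The bin from 9000001 was at -0.33 (3.06 and 2.44), and the scaffold's last, from 18000001, at -0.33 (51.75 and 41.05), with every bypass library below every senescent one. The other 4 ran from -1.92 to -1.03.

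The size of this difference varied between bins. Among bins with at least 50 positions, the lowest ratio was -1.75 in the bin from 14500001 (29.4 CPM in senescent and 8.76 in bypass). Next were -1.66 in that from 15000001 (61.9 and 19.6) and -1.59 in that from 7500001 (37.5 and 12.5). From base 14500001 on, the 11 bins with at least 50 positions averaged -1.07 ± 0.40, and all 11 were below -0.5, unlike the sparser bins from 17500001 and 18000001. The 35 bins between the split and that base averaged -0.92 ± 0.22. In the same 46 bins the other groups averaged 0.03 (transformed), 0.08 (normal), 0.04 (vehicle) and 0.02 (B[a]P pools). Below -0.5 were 0 bins of transformed and 0 of normal colonies, 1 of vehicle pools and 2 of B[a]P pools.

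**Figure D2:**
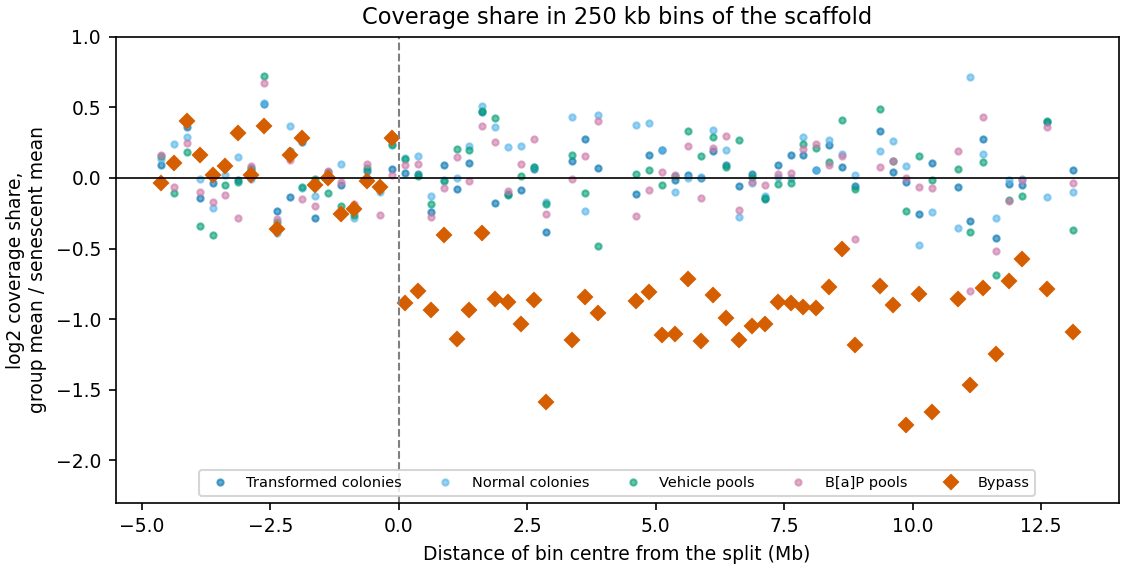
Log2 ratio of each group's mean coverage share to the senescent mean in bins of 250 kb with at least 50 positions, by distance of the bin centre from the split (dashed line). Bypass bins average 0.06 before the split and -0.96 after it, all 46 of the latter below 0. The other groups average near 0 on both sides, with single bins from -0.80 to 0.72.

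Closer to the split, few positions are listed. In bins of 50 kb, the bin from 4650001 had 26.8 CPM in senescent and 33.0 in bypass libraries (log2 0.30, 111 positions). Only 5 positions are listed in the bin from 4700001 and 10 in that from 4750001, where the values were 5.25 in senescent and 5.26 in bypass libraries (log2 0.00). Coverage around the split itself thus rests on few positions.

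The ratio was below 0 in the next bins with listed bypass positions. It was -0.44 in the bin from 4800001 (39.7 and 29.2 CPM, 175 positions), where all 4 bypass libraries were below all 20 others. It was -1.05 from 4850001 (80.1 and 38.7, 259 positions), -1.30 from 4900001, -0.91 from 4950001 and -1.06 from 5000001 (55.9 and 26.8). From there to 500 kb after the split the bins held -0.57 (5100001), -0.32 (5150001) and -1.14 (5200001). The bin from 5050001 has 3 positions, none listed in a bypass library.

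Bins of few counts also scattered before the split. The bin from 4600001 was at -1.43, with 3.79 CPM in senescent and 1.41 in bypass libraries over 25 positions, and that from 4450001 at -0.79 (7.54 and 4.36). The bin from 4550001 was at 0.56 (15.2 and 22.5). Bypass and senescent libraries overlapped in each of these 3 bins.

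A least-squares search for 1 change in level, over 561 bins of 10 kb with at least 2 CPM, put the step a little after the split. The last bin of the higher level ended 100 kb (bypass 1), 130 kb (bypass 2), 100 kb (bypass 3) and 60 kb (bypass 4) after it. The mean log2 levels differed by -1.13, -0.95, -1.07 and -1.13 across the step. The same search on the bypass mean put it between 4.83 and 4.84 Mb, with a step of -0.97. These places differ between the libraries by more than 1 bin, so the step is located here to within about the range 4.81 to 4.88 Mb.

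**Figure D3:**
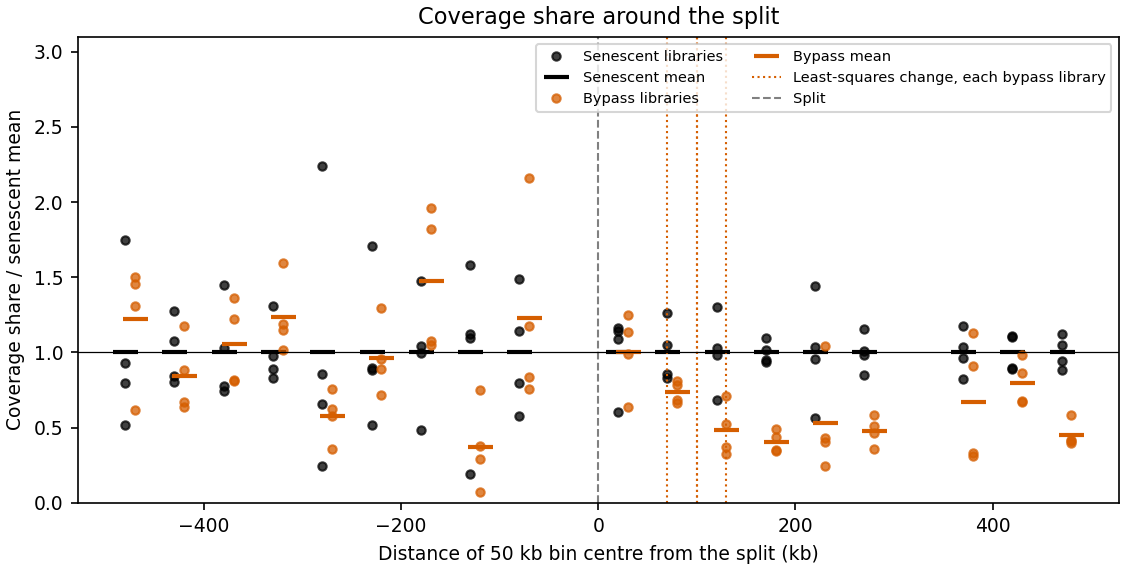
Coverage share of each senescent and bypass library in bins of 50 kb with at least 10 positions, divided by the senescent mean of the bin, by distance from the split in kb (dashed line), and the change found in each bypass library (dotted lines, 2 of which coincide). The bypass mean is near 1 in the bin just after the split, and below the senescent mean in each plotted bin beyond it.

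The same step search was run on the bypass to senescent ratio of every scaffold with enough bins. KB708158.1 had a step of -0.999, at base 4750001 in 250 kb bins. The largest step was 0.35 in size among 8 other scaffolds whose summed coverage was lower in bypass libraries, and 0.34 among 169 remaining scaffolds. Lower here means a log2 ratio for the whole scaffold, centred on the median scaffold, under -0.5. None of either kind passed 0.5 in size. Because KB708158.1 was chosen on this same contrast, its larger step is a description and was not tested. The level after the split was near that of the 9 scaffolds of lower coverage as a whole, where the bypass libraries were at -0.97 to -0.91 on the log2 scale. After the split of KB708158.1 they were at -1.02 to -0.86.

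Methylation was compared in windows of 1 kb, each with at least 3 positions. In all 24 libraries 106 windows were measured, 37 before and 69 after the split. Fewer were measured in bypass after the split: 121 windows were measured in all 4 bypass libraries and 289 in all 4 senescent ones, against 95 and 99 before it. In the 106 windows the median count per window and library after the split was 381.5 in bypass and 882 in senescent libraries. Before it, these were 680.5 and 633.5.

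In the 106 windows measured in all 24 libraries, methylation was low on both sides and lower after the split in every group. Before it, the mean over windows was 18.9% ± 1.07 in senescent, 22.2% ± 0.34 in bypass, 17.5% ± 1.04 in transformed, 16.1% ± 1.27 in normal, 16.7% ± 1.02 in vehicle and 17.2% ± 0.97 in B[a]P libraries (SD, n = 4). After it, the means were 11.6% ± 0.50, 14.6% ± 0.68, 10.8% ± 0.50, 10.4% ± 0.71, 9.47% ± 1.41 and 10.2% ± 0.75 in the same order. In each of the 24 libraries the side after the split was the lower one. Of windows measured in all 4 senescent libraries, only 37 of 99 before and 69 of 289 after the split are among these. Whether that filter bears on the lower level after the split was not tested.

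Bypass libraries had the highest mean on both sides. The 4 senescent libraries had 17.9%, 19.97%, 19.6% and 18.1% before the split, and the 4 bypass libraries 22.6%, 21.9%, 22.0% and 22.4%. After it, these were 11.9%, 11.2%, 11.2% and 12.2%, and 15.5%, 14.1%, 14.7% and 14.0%. No bypass library overlapped a senescent one on either side. Bypass minus senescent was 3.34 percentage points before the split and 2.95 after it, so the difference after the split minus that before it was -0.396 points. Its sign turned without senescent 1 (0.0433) or senescent 4 (0.0615), so the 2 sides cannot be ordered by it. Over all 22597 windows of the series measured in every library, senescent libraries averaged 31.4% and bypass libraries 34.05%.

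That difference depended on how positions were combined. Over the 34 and 50 single positions listed in all 24 libraries, bypass minus senescent turned to -1.35 points before and -0.56 after the split. It was 1.95 and 5.05 points when windows were weighted by reads. The window means compare partly different positions between libraries.

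The mean difference came from few windows. Among the 37 windows before the split, the median difference was 0.36 points, 5 were at least 10 points higher in bypass and 1 at least 10 points lower. Among the 69 after it, the median was 0.04 points, 7 were higher by that much and 2 lower. Over all windows of the series measured in every library, 14% were at least 10 points higher and 4.16% lower. In 3 of 37 and 6 of 69 windows every bypass library was above every senescent one, against 6.9% over the series.

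Windows of low methylation made up most of both sides. In the 28 windows before and 58 after the split that averaged under 20% over the 24 libraries, senescent libraries had 4.13% and 3.02%, and bypass libraries 6.15% and 5.75%. The 6 and 7 windows between 20% and 80% had 52.8% and 42.2% in senescent and 65.2% and 45.8% in bypass libraries. The 3 and 4 windows at 80% or more had 88.75% and 82.9%, and 86.4% and 87.9%.

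With the windows measured in the 8 senescent and bypass libraries only, 63 before and 99 after the split could be set side by side. Bypass minus senescent averaged 3.68 points before and 2.22 after. Of windows at 20% to 80% in senescent libraries, 8 of 15 before the split were at least 10 points higher in bypass and 1 lower, while 4 of 18 after it were higher and 5 lower. On scaffolds of ordinary coverage 34.5% of such windows were higher and 13.5% lower, and on the 9 scaffolds of lower coverage 37.1% and 19.4%. In those windows bypass methylation was under 10% or over 90% in 3 of 15 before and 2 of 18 after the split, against 6.3% on scaffolds of ordinary coverage and 9.54% on the 9. The median SD between bypass libraries in them was 7.70 points before and 12.4 after, and the counts per window in bypass were lower after the split.

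**Figure D4:**
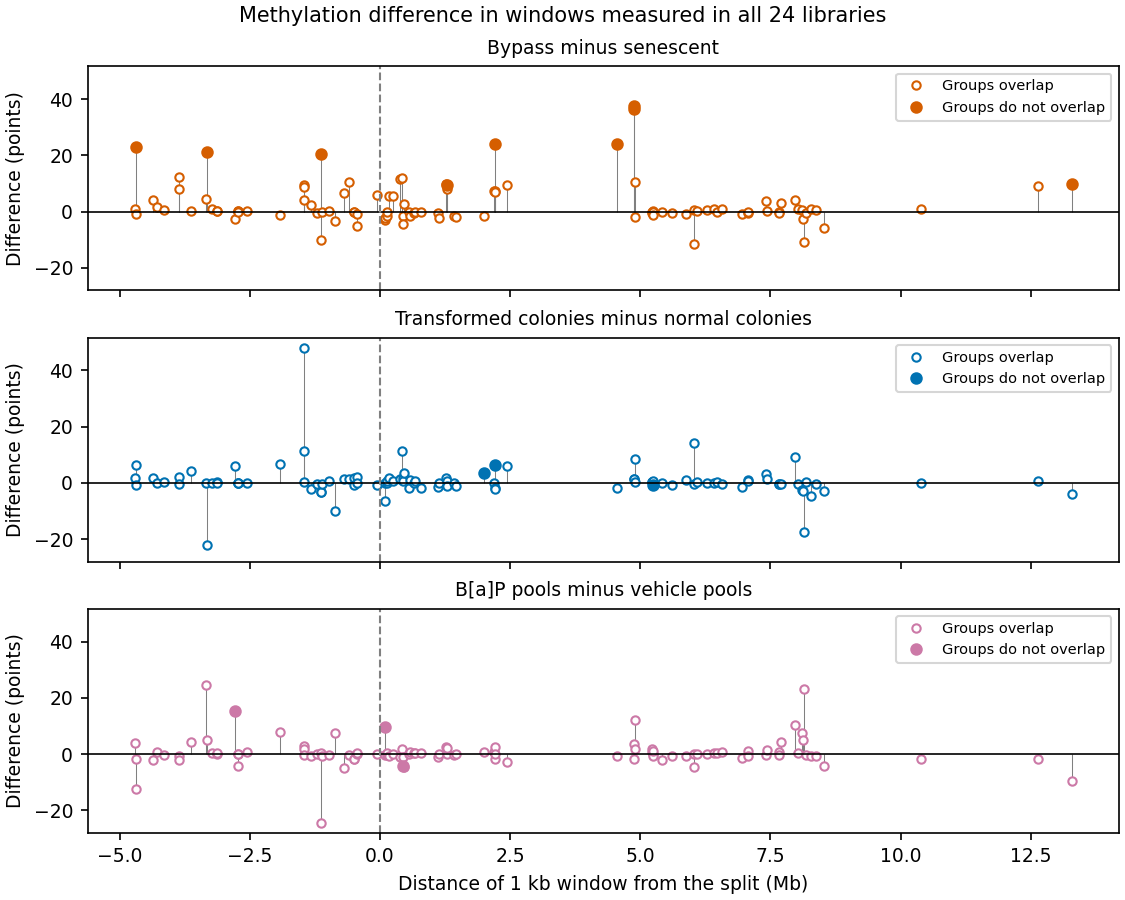
Difference of group means in percentage points for the 106 windows of 1 kb measured in all 24 libraries, by distance from the split (dashed line), in 3 comparisons; filled points are windows whose 2 groups of 4 libraries do not overlap. Most windows lie near 0 on both sides, and the bypass points farthest from 0 are the windows from 9637001 and 9638001, after the split.

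Between the groups that the choice did not use, no difference in methylation on either side passed the test, though some exceeded the SD between replicates. Transformed minus normal colonies was 1.39 points before the split (exact permutation p = 0.143, adjusted over 8 tests 0.571) and 0.398 after it (exact p = 0.429, adjusted 0.62). The change from before to after differed by -0.995 points (exact p = 0.0857, adjusted 0.571). This difference and the one before the split were larger than the SD of either group. B[a]P minus vehicle pools was 0.53 points before (exact p = 0.514, adjusted 0.62), 0.744 after (exact p = 0.4, adjusted 0.62) and 0.215 in the change between the sides (exact p = 0.771, adjusted 0.771). The sign of several of these turned under other settings, and none passed the threshold under any setting.

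A genome-wide test of windows between bypass and senescent libraries, given as a description here, called 891 of 24638 windows (3.62%), 816 of them higher in bypass (3.31%). Calls needed group means 10 points or more apart and an adjusted p under 0.05. On the scaffold 1 of 36 tested windows was called before the split and 4 of 50 after it, all 5 higher in bypass. Groups did not overlap in 4 of 36 and 10 of 50, against 10.6% of windows in the genome. Nothing is read from these counts, since the scaffold was chosen on the same contrast. The quasi-likelihood test of edgeR called 0 of the 5, and also 0 of the 24638 windows in the genome.

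The called window before the split, KB708158.1:3969001-3970000, was near full methylation in bypass. It had 77.7%, 75.2%, 85.5% and 75% in senescent libraries, and 99.2%, 100%, 94.9% and 100% in bypass libraries. All bypass values lay above all senescent values. Vehicle pools were also high, at 92.7% ± 6.13 (SD, n = 4), and single libraries of normal colonies and B[a]P pools reached 99.5% and 100%. Transformed colonies had 76.8% ± 14.1, normal colonies 75.2% ± 36.4 (n = 3) and B[a]P pools 79.65% ± 19.1 (n = 4).

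Of the called windows after the split, 3 lay within 6 kb, from 9637001 to 9643000. Window 9638001-9639000 had 23.5%, 20.8%, 20.1% and 41.2% in senescent libraries and 57.9%, 68.5%, 60.7% and 64.0% in bypass libraries. Transformed colonies had 11.4% ± 8.86 there, normal colonies 10.2% ± 3.04, vehicle pools 7.52% ± 2.42 and B[a]P pools 11.1% ± 13.3 (SD, n = 4). The lowest bypass value exceeded the highest senescent value by more than 10 points. The window was not called by edgeR, which called 0 of 24638 windows in the genome. It was not called with the replicate block either, which called 107 of them.

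Its neighbour 9637001-9638000 had 22.9%, 28.8%, 9.26% and 18.3% in senescent and 57.8%, 86.4%, 36.7% and 48.8% in bypass libraries. The 4 other groups averaged 4.58% to 12.9% there. Window 9642001-9643000 had 17.8%, 5.18%, 0.35% and 0% in senescent and 31.3%, 32.2%, 40.9% and 72.8% in bypass libraries. Outside that culture this window was uneven: it reached 93.5% in transformed 3 and 61.6% in vehicle 2. The windows between and beside them were mixed. Window 9639001-9640000 had 2.59% in senescent and 16.1% in the 3 bypass libraries that measured it, without overlap. Bypass was also the higher mean in 9641001-9642000 (19.3% against 8.78%) and 9644001-9645000 (13.5% against 4.84%), where the groups overlapped. It was the lower mean in 9640001-9641000 (3.99% against 8.40%), 9643001-9644000 (1.27% against 4.41%) and 9645001-9646000 (3.398% against 5.469%).

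**Figure D5:**
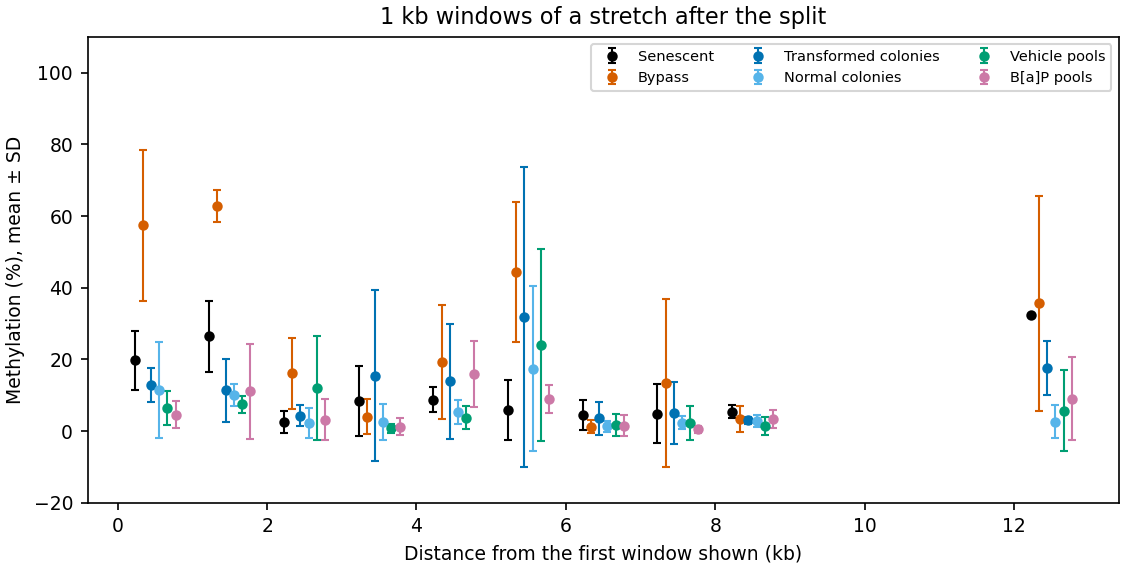
Methylation of 1 kb windows in the stretch holding 3 of the windows called after the split, as mean ± SD over the libraries of each group in which the window was measured (2 to 4), by distance from base 9637001. Bypass libraries average 57.4% and 62.8% in the first 2 windows and 44.3% in the sixth, while most other means are under 30%.

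The fourth called window after the split, 9296001-9297000, had 10.9%, 5.97%, 4.45% and 5.34% in senescent and 36.9%, 25.6%, 32.4% and 27.4% in bypass libraries. Among windows with the widest range of group means, 6958001-6959000 was also higher in bypass, at 29.5%, 33.2%, 76.2% and 27.6% against 18.8%, 12.4%, 16.0% and 22.9%. It averaged 6.83% in transformed, 0.59% in normal, 1.59% in vehicle and 4.23% in B[a]P libraries, and it was not called. The culture's 2 groups were the highest of the 6 in that window.

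Of the other windows of widest range, 1 lay after and 4 before the split. Window 3287001-3288000 had the widest range of all, from 26.8% ± 23.0 in normal colonies to 84.3% ± 8.55 in bypass. Senescent libraries were at 80.05% ± 9.005 there. Window 12890001-12891000 ran from 50.4% ± 40.4 in vehicle pools to 83.9% ± 14.9 in normal colonies, with a spread between replicates as wide as the range. Window 3614001-3615000 ran from 33.3% ± 14.1 in B[a]P pools to 89.6% ± 6.28 in bypass, with senescent libraries at 69.1% ± 8.37. Window 62001-63000 was lowest in senescent libraries, at 8.56% ± 7.76 against 31.7% ± 7.38 in bypass and 47.0% ± 19.4 in vehicle pools. In these last 2 windows every bypass library was above every senescent one. Window 4159001-4160000 was at 17.5% ± 17.7 in senescent and 28.0% ± 11.6 in bypass, and at 3.14% or less in the other groups.

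Windows next to the split were mostly unmethylated in every group. The closest window before it, 4687001-4688000, had 7.97% ± 4.12 in senescent and 14.0% ± 4.58 in bypass libraries, and 1.43% to 2.32% in the 4 other groups. Windows 4302001-4303000 and 4303001-4304000 were at 6.63% or less in all 6 groups. After the split, 4841001-4842000 ran from 5.81% ± 4.61 in vehicle pools to 20.6% ± 17.3 in normal colonies, with bypass at 12.7% ± 12.8. Windows 4842001-4843000 and 4888001-4889000 were at 3.19% or less in all groups.

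No window of the scaffold passed the genome-wide test between transformed and normal colonies, where 35 windows before and 108 after the split were tested. The test called 0 of 26825 windows in the genome (0%). At an unadjusted p below 0.05 there were 1 and 4 on the scaffold, against 8.12% over the genome. By edgeR there were 0 and 0, against 781 of 26825 windows in the genome. Groups did not overlap in 0 and 2 windows, against 3.14% over the genome. The smallest p before the split was in window 3287001-3288000, at 74.9% ± 25.3 in transformed and 26.8% ± 23.0 in normal colonies (adjusted p = 0.57), followed by 3882001-3883000 at 86.7% ± 6.73 and 96.8% ± 3.01 (adjusted p = 0.629). After it, 11613001-11614000 was at 86.3% ± 19.0 and 53.7% ± 24.8 (adjusted p = 0.57), and 12289001-12290000 at 42.7% ± 8.57 and 16.3% ± 24.4 (adjusted p = 0.571). The SD over normal colonies was 23.0 to 24.8 points in 3 of these 4 windows.

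Between B[a]P and vehicle pools, 19 and 65 windows of the scaffold were tested and 0 were called, as were 0 of 18421 in the genome (0%). At an unadjusted p below 0.05 there were 2 and 1, against 6.36% over the genome. By edgeR there were 0 and 2, against 408 of 18421 windows in the genome. Groups did not overlap in 1 and 2 windows, against 2.87%. Window 1413001-1414000 was at 81.6% ± 9.85 in B[a]P and 57.0% ± 13.5 in vehicle pools (adjusted p = 0.752), and 1975001-1976000 at 92.3% ± 6.92 and 77.1% ± 4.97 (adjusted p = 0.762). After the split, 12829001-12830000 was at 82.3% ± 7.02 and 97.1% ± 3.39 (adjusted p = 0.785), and 9641001-9642000 at 16.0% ± 9.21 and 3.72% ± 3.15 (adjusted p = 0.778). The pools thus gave no called window on either side at this depth.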

How the data were processed

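Per the labels' protocols, a commercial RRBS kit was used on genomic DNA. The submitters' processing notes name methylKit 1.10.0, Bismark 0.22.1, Trim Galore 0.5.0, Bowtie2, bcl2fastq 2.20.0.42 and R 3.6.1, with neither roles nor settings. No build is named, so coordinates follow the deposited files, and no gene or sequence is given because no genome or annotation of those scaffolds was used here. Each position has, per the file headers, its coverage (a count of reads) and the percent of them read as C or as T. Every deposited coverage count is 10 or more.

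Coverage was summed per side or bin and divided by the library total (CPM). Methylated and unmethylated counts were summed over 1 kb windows with at least 3 positions outside the top 0.1% of coverage. Windows of the whole genome with pooled methylation of 5 to 95% were tested by a quasi-binomial model with group as its term and an F test. Its dispersions were squeezed with limma 3.58.1 within 10 classes of methylation, p-values were Benjamini-Hochberg adjusted, and edgeR 4.0.16 was the alternative. Side means were compared by exact two-sided permutation tests, adjusted over 8. The tests were tried on simulated data. Python 3.11.15 and R 4.3.3 were used. The change search added 0.5 CPM to each bin.

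The scaffold, the split and the comparisons were chosen with earlier results of these data known. Windows named are the 3 nearest the split on each side and the 4 of widest range of group means on each side. Called windows are named too, at most 5 a side, or the 2 of smallest p where none was called. The windows beside the called stretch and the extreme bins of coverage were named after their values were seen. Bins within 500 kb of the split are described. Alternatives were other coverage minimums, position sets, weights and dispersions, edgeR, a replicate block and leaving out each library.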

Additional observations from a re-analysis of the deposited data

How the results depend on the processing

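Coverage after over before, bypass against senescent (log2 -0.98), moved to -0.78 over the 34 and 50 positions listed in all 24 libraries and to -1.075 at a minimum of 20 counts. Bypass minus senescent methylation moved to 1.953 points before the split, 5.052 after it and 3.099 between the sides with weights by reads. Over single positions it was -1.354, -0.5643 and 0.7896, all with turned sign. At 20 counts it was 5.031 after the split and 1.556 between the sides. The difference between the sides, -0.396 in the main setting, thus turned sign under each of these settings. In the windows of the 8 libraries compared, a setting chosen after seeing the data, bypass minus senescent was 2.222 after the split.

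For transformed against normal colonies, the sign turned after the split over single positions (-2.963), before the split (-1.411) and between the sides (1.658) at 20 counts, and between the sides in the windows of the 8 libraries (0.06535). For B[a]P against vehicle pools it turned after the split with weights by reads (-0.1864) and at 20 counts (-0.1675). Between the sides it turned with weights (-1.476), over single positions (-1.152), at 20 counts (-0.4729) and in the windows of the 8 libraries (-0.6876). Other values kept their sign but not their size: over positions or single positions listed in all 24 libraries, the pools' coverage difference was -0.341, and transformed minus normal methylation was 3.852 before the split and -6.815 between the sides. The smallest adjusted p under any setting, from exact permutation tests, was 0.2286. The cause of these moves was not tested.

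Windows called on the scaffold between bypass and senescent libraries, 5, became 1 with each window's own dispersion and 3 at 20 counts. They became 2 over shared positions and 0 with edgeR, which also called 0 of 24638 in the genome. Without 1 library each they were 1 (without bypass 4) to 4. The other 2 comparisons kept 0 calls under every setting.

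Leaving out each library gave -0.9954 to -0.954 (bypass), -0.04222 to 0.001931 (transformed) and -0.07839 to 0.0006919 (B[a]P pools) for the coverage ratio. The B[a]P difference between the sides ran from -0.328 to 0.486 points, turning without B[a]P 3 or vehicle 4 (-0.2224). The bypass difference between the sides ran from -0.9006 to 0.06151 points, turning without senescent 1 or 4, and was -1.456 in the windows of the 8 libraries. With the replicate number as a block the scaffold had 0 called windows between bypass and senescent libraries, against 107 of 24638 in the genome. No pairing by number was seen: same-numbered libraries correlated at -0.03 to 0.01, and 2 of 12 matched their own number best. So few libraries cannot settle whether the numbers pair the samples. With the replicate block, a sign-flip test of 4 differences cannot give a p below 0.125.

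Only 106 windows were measured in all libraries, and after the split bypass had the fewest reads in them. Coverage counts 1 read over several positions, and removal of PCR copies is not recorded in the sources used, so counts are not independent.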
